A study of Mus musculus with 3 samples.

Results

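The collagen chain genes of mouse were followed across 3 primary cultures of pigment epithelium, the pigmented cell layer that lines the retina, ciliary body and iris. The genes were chosen by symbol from a list of the family. All 35 listed genes were on the array, among 18193 genes named there, and were covered by 66 of its 45101 probe sets. They were grouped as 10 fibrillar collagens, 9 network-forming collagens, 6 FACIT collagens (fibril-associated collagens with interrupted triple helices) and 10 collagens of other structure. The study asked about thrombospondin-1 and the response of T cells to these cells.

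The cultures were retinal pigment epithelium (RPE), ciliary body pigment epithelium (CBPE) and iris pigment epithelium (IPE), each hybridised to 1 Affymetrix array. All came from C57BL/6 mice of 6 to 8 weeks, and the number of animals pooled is not given in the sources used here. RPE was grown in DMEM with 20% fetal bovine serum, and CBPE and IPE in RPMI 1640 with 10%, so a difference of RPE from the others may belong to medium or tissue, which cannot be told apart. Every culture spent the last night in medium without serum. Cytokeratin was found on over 95% of RPE and CBPE cells, both after 14 days, and on over 99% of IPE cells. The number of days is not given for IPE. In comparisons with IPE, purity and any difference in culture time cannot be told apart from tissue. With 1 array per culture there was no replicate, and no test between cultures could be made.

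Collagens are secreted proteins built from 3 chains wound into a triple helix. Fibrillar chains (types I, II, III, V, XI and XXVII) assemble into the tensile fibrils of connective tissue. Network-forming chains of type IV make the sheet of basement membranes, and FACIT chains sit on the surface of fibrils. In the eye, pigment epithelia rest on basement membranes of type IV and type XVIII collagen, whereas fibrillar collagens are the main product of stromal fibroblasts in the sclera, choroid and iris.

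Signals are linear intensities as deposited, with a common scale on the 3 arrays, where the trimmed mean was 100.001. The floor of each array, the median of its own non-control probe sets, was 16.8 in RPE, 17.3 in CBPE and 14.5 in IPE, and signals under it carry no order. Of all 18193 genes, 11642 were above the floor in RPE, 11921 in CBPE and 11473 in IPE. These are the baseline for every count of markers above the floor given here and below. The labels and the marker genes did not match in full. Of 7 genes that mark mature RPE, 2 were above the floor in RPE, 3 in CBPE and 2 in IPE. Rpe65, Lrat and Rgr were under it on all 3 arrays, and Rpe65 had a signal of 2.4 in RPE. Rdh5, a retinol dehydrogenase, was the brightest, at 84.3 in RPE, 144 in CBPE and 124 in IPE, and Rlbp1, a retinaldehyde-binding protein, had 17.3 in RPE, 5.3 in CBPE and 84.0 in IPE. Best1 and Ttr were above the floor in CBPE alone. Of 12 markers of pigment epithelium, 10 were above the floor in RPE, 9 in CBPE and 11 in IPE, and their summed signal was 2043 in RPE, 1199.8 in CBPE and 6182 in IPE. Dct, Pmel and Oca2 were under the floor in CBPE, Oca2 and Slc45a2 in RPE, and Slc45a2 in IPE. The ratio of the 3′ to the 5′ probe set of Actb, a sign of RNA integrity and labelling, was 2.25 in RPE, 2.26 in CBPE and 1.5 in IPE. Control probe sets differed too. The geometric mean of the spiked hybridisation controls was 1941 in RPE, 3192 in CBPE and 1239 in IPE, and a probe set for 18S ribosomal RNA read 27.7 in RPE, 274 in CBPE and 17.6 in IPE. The part of these array differences in the collagen values below was not tested. In RNA from whole cultures, fewer cells of a type and less RNA per cell cannot be told apart.

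Collagens were among the brightest transcripts, with 12 of the 911 genes of mean signal over 1000, and most were brightest in CBPE. Of the 35 genes, 23 were above the floor on all 3 arrays, 9 on 1 or 2 arrays, and 3 (Col11a2, Col13a1 and Col17a1) on none. A signal over 100 on at least 1 array was reached by 21 genes, and 17 of them were over 100 on all 3. Among the 21, the highest signal was in RPE for 1 gene (Col8a1), in CBPE for 15 and in IPE for 5 (Col4a5, Col4a6, Col12a1, Col18a1 and Col23a1). The order CBPE above RPE above IPE held for 14 of the 21. The hybridisation controls given above had that order as well, and their part in it was not tested. IPE had the lowest signal, by a factor of 2 or more against both other cultures, for 8 genes: Col1a2, Col5a3, Col6a1, Col6a2, Col6a3, Col8a2, Col11a1 and Col14a1. The opposite, a signal in IPE above both others by that factor, was found for Col4a5, Col4a6, Col18a1 and Col23a1. The plot of collagen signals by culture shows both groups. How many of all genes met these rules was not counted, so these collagen counts have no baseline. The 911 genes of mean signal over 1000 leaned toward CBPE as well. Against IPE, 732 of them were higher in CBPE and 179 lower. Against CBPE, 605 were lower in RPE and 306 higher.

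**Figure D1:**
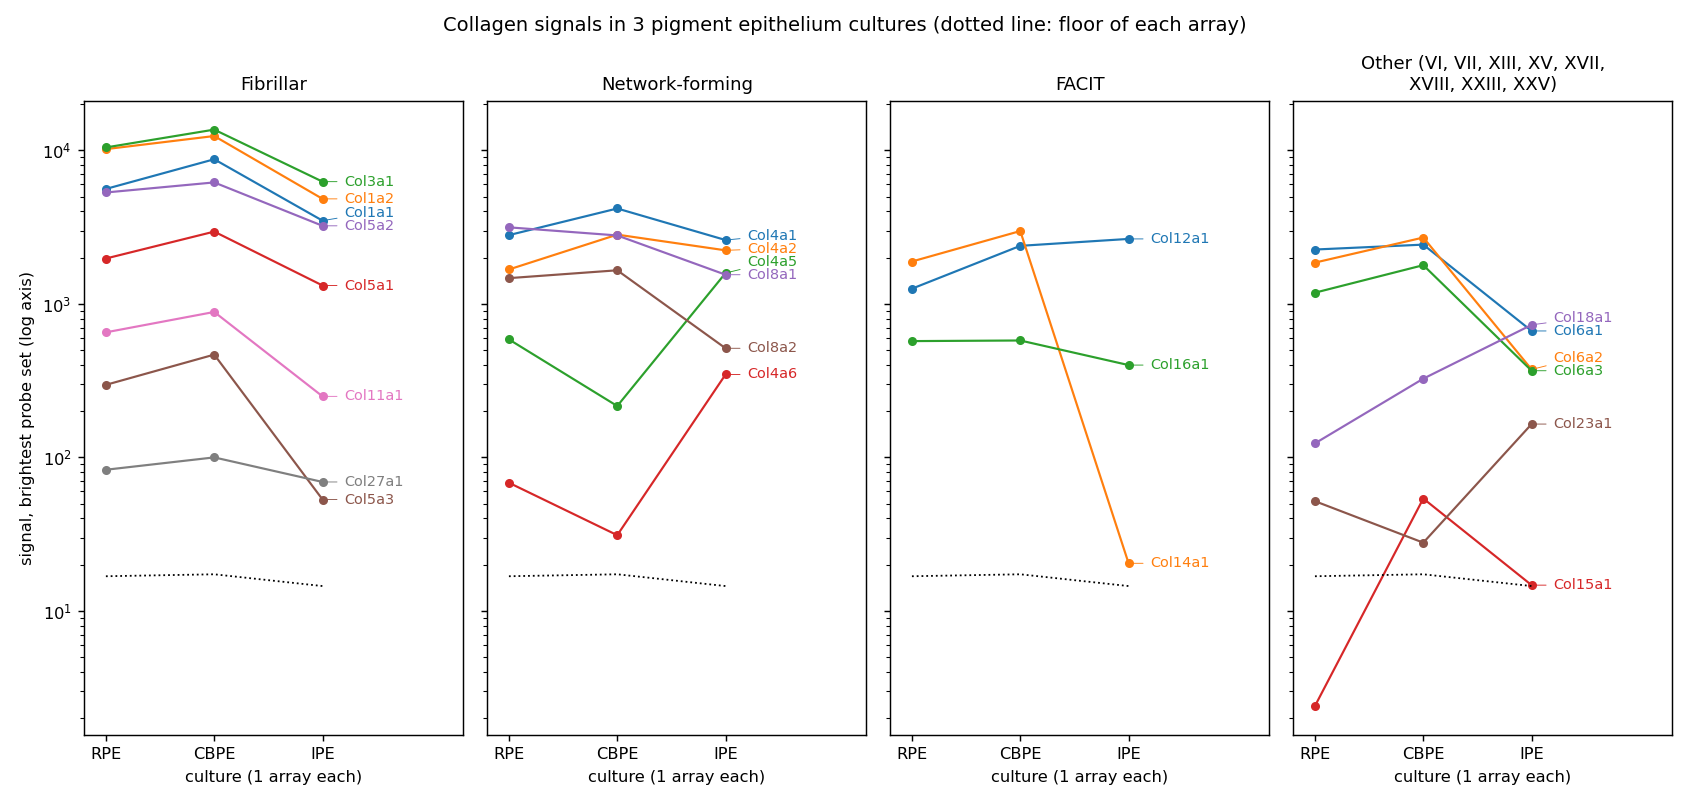
Signal of the brightest probe set (log axis) in RPE, CBPE and IPE, 1 array each, for the collagen genes with a signal over 40 on at least 1 array, in 4 panels by class. Dotted lines mark the floor of each array. Fibrillar lines peak in CBPE and are lowest in IPE, Col14a1 drops to 20.4 in IPE, and Col4a5, Col4a6, Col18a1 and Col23a1 are highest in IPE.

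Without replicates, the spread of log2 differences among probe sets of one gene served as the error. Its pooled SD was 0.45 for RPE against IPE (1773 genes), 0.49 for CBPE against IPE (1666 genes) and 0.29 for RPE against CBPE (1693 genes), and it leaves out the spread between animals, cultures and hybridisations. Of the 21 brighter collagens, the differences within this SD were those of Col4a1 and Col4a2 between RPE and IPE and of Col4a2 and Col12a1 between CBPE and IPE. Between RPE and CBPE, 6 were within it (Col1a2, Col5a2, Col6a1, Col8a1, Col8a2 and Col16a1). Of the 21, 15 had at least 2 usable probe sets. Their probe sets agreed in direction for 13 in RPE against IPE and for 13 in CBPE against IPE, where Col4a1 and Col8a1 did not, and for 14 in RPE against CBPE, where Col1a2 did not.

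The fibrillar collagens were led by the chains of types I and III, the main fibril formers of skin, tendon and sclera. Col3a1, the single chain of type III, gave a signal of 10440.3 in RPE, 13644 in CBPE and 6251 in IPE. Col1a2, which joins Col1a1 in the type I molecule, gave 10181 in RPE, 12392 in CBPE and 4828 in IPE. Col1a1 gave 5603 in RPE, 8747 in CBPE and 3481 in IPE. All 3 were highest in CBPE and lowest in IPE. The log2 difference against IPE was 0.74 in RPE and 1.13 in CBPE for Col3a1, and 1.08 and 1.36 for Col1a2 in the same 2 cultures. For Col1a1 it was 0.69 in RPE and 1.33 in CBPE. These are the genes whose difference depended most on the scale of the arrays. After quantile normalization the log2 difference of Col3a1 was -0.09 in RPE and -0.01 in CBPE against IPE, the other sign, and that of Col1a2 was 0.27 and 0.28 in the same cultures. Further probe sets of Col1a1 and Col1a2 gave larger differences. The second probe set of Col1a1 read 2439 in RPE, 6342 in CBPE and 492 in IPE, and the faintest of Col1a2 read 189 in RPE, 94.3 in CBPE and 5.4 in IPE, the one that placed RPE above CBPE.

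Type V collagen is a minor partner that starts and narrows type I fibrils, and type XI does the same in cartilage. Col5a2 gave 5313 in RPE, 6179 in CBPE and 3223 in IPE, and Col5a1 gave 1973 in RPE, 2955 in CBPE and 1316 in IPE. Both followed the order of type I, with log2 differences against IPE of 0.58 in RPE and 1.17 in CBPE for Col5a1. Between RPE and CBPE, the difference of Col5a2 was -0.22, and 0.09 after quantile normalization. The 2 further probe sets of Col5a1 agreed in direction but were smaller, down to 0.37 in CBPE against IPE. Col5a3, the third type V chain, differed more: its signal was 297 in RPE, 467 in CBPE and 53.1 in IPE, 5.59-fold higher in RPE and 8.79-fold higher in CBPE than in IPE. Its second probe set was under the floor on all 3 arrays. Col11a1 gave 652 in RPE, 885 in CBPE and 249.5 in IPE, above IPE by 2.61-fold in RPE and 3.55-fold in CBPE, and its second probe set agreed, at 533 in RPE, 581 in CBPE and 184 in IPE. By the brightest probe set, the fainter chains Col5a3 and Col11a1 stood further above IPE than the bright chains of types I and III, and quantile normalization left their log2 differences as large (2.71 and 1.51 in RPE, 3.34 and 1.90 in CBPE). The order depended on the probe set. With the mean of all probe sets of a gene, the log2 difference of RPE against IPE was 1.35 for Col5a3, 1.46 for Col11a1, 1.5 for Col1a1 and 2.08 for Col1a2. For CBPE against IPE that mean was 1.70 for Col5a3, 1.74 for Col11a1, 2.51 for Col1a1 and 2.01 for Col1a2. The means of Col5a3 were lowered by its second probe set, which was set to the floor on every array. That probe set entered with 0.21 for RPE and 0.25 for CBPE against IPE, which reflect the floors alone. Col27a1, the chain of a fibrillar collagen of growing cartilage, was faint and similar in all cultures, at 83.0 in RPE, 99.9 in CBPE and 69.1 in IPE. Col2a1, the chain of cartilage and vitreous fibrils, was near or under the floor, at 8.5 in RPE, 27.3 in CBPE and 22.3 in IPE. Of 10 cartilage markers, 3 were above the floor in RPE, 7 in CBPE and 4 in IPE, summed to 544.5 in RPE, 299 in CBPE and 231 in IPE. Matn1, Hapln1 and Chad were under it on all 3 arrays, Acan, Sox5 and Snorc in RPE and IPE, and Sox6 in RPE. The brightest were Matn3, a matrix protein of cartilage, at 119.7 in RPE, 47.8 in CBPE and 125 in IPE, and Comp, a matrix protein of cartilage and tendon, at 316 in RPE, 131 in CBPE and 14.9 in IPE.

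Type IV collagen genes stand in head-to-head pairs, and the pairs differed in pattern here. Col4a1 and Col4a2, which together make the type IV molecule of nearly all basement membranes, were bright everywhere. Col4a1 gave 2803 in RPE, 4179 in CBPE and 2604 in IPE, and Col4a2 gave 1674 in RPE, 2823 in CBPE and 2231 in IPE. Neither differed 2-fold between any 2 cultures by its brightest probe set. Both were higher in CBPE than in RPE, by 1.49-fold and 1.69-fold. Against IPE the direction was not settled. The second probe set of Col4a1 read 661 in RPE, 1713 in CBPE and 2122 in IPE, a log2 difference of -1.68 for RPE against IPE where the brightest gave 0.11. After quantile normalization the difference of Col4a1 was -0.33 for RPE and 0.01 for CBPE against IPE. That of Col4a2 was -0.84 for RPE and -0.27 for CBPE against IPE, where the deposited scale gave -0.41 and 0.34.

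Col4a5 and Col4a6, the pair on the X chromosome whose chains form a type IV molecule of selected basement membranes such as those of smooth muscle and of the capsule around the glomerulus, were highest in IPE. Col4a5 gave 586 in RPE, 216 in CBPE and 1588 in IPE, so that it was 2.71-fold lower in RPE and 7.35-fold lower in CBPE than in IPE. Col4a6 gave 68.3 in RPE, 31.1 in CBPE and 347 in IPE, 5.07-fold lower in RPE and 11.1-fold lower in CBPE than in IPE. Both were also higher in RPE than in CBPE, Col4a5 by 2.72-fold and Col4a6 by 2.2-fold. Among the 21 brighter genes, no other collagen was below both other cultures in CBPE by a factor of 2. The second probe set of Col4a5 read 129 in RPE, 96.0 in CBPE and 790.2 in IPE and that of Col4a6 48.1 in RPE, 1.6 in CBPE and 177 in IPE, in the same order, though for Col4a5 the difference between RPE and CBPE was then 0.42 on the log2 scale. Of the 12 pigment epithelium markers, 9 were also at least 2-fold lower in RPE and 9 in CBPE than in IPE, and against CBPE 4 were higher and 1 lower in RPE. In either direction, 81.8% of those measured differed in RPE against IPE, 91.7% in CBPE against IPE and 45.5% in RPE against CBPE. All genes gave 20.3%, 24.3% and 8.01%. Tyr, the first enzyme of melanin synthesis and the brightest of the 12 markers, had 493 in RPE, 384 in CBPE and 1114 in IPE, so that RPE and CBPE were close. Tyrp1, of the same pathway, had 550.0 in RPE, 67.2 in CBPE and 1388 in IPE and Dct 286.5 in RPE, 2.0 in CBPE and 1429 in IPE. The keratins Krt8 and Krt18 were highest in CBPE and lowest in IPE, at 26.2 in RPE, 95.3 in CBPE and 17.4 in IPE for Krt8, and were named after their values were seen. Of 4 melanocyte and Schwann cell markers, 1 was above the floor in RPE, 2 in CBPE and 3 in IPE, summed to 44.9 in RPE, 92.5 in CBPE and 108 in IPE. S100b had 30.6 in RPE, 27.4 in CBPE and 35.9 in IPE, and Ednrb and Sox10 were above the floor in IPE alone, with Kit above it in CBPE alone. The part of pigment cell content in the Col4a5 and Col4a6 values was not tested. Col4a3 (11.9 in RPE, 21.2 in CBPE and 1.4 in IPE) and Col4a4 (10.0 in RPE, 9.1 in CBPE and 22.6 in IPE), the pair best known from the glomerulus of the kidney, were each above the floor on 1 array, and barely so.

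The start regions of both type IV pairs are shown because the genes of each pair start close to each other on opposite strands. The windows come from RefSeq for build GRCm38.p6, each of 300 bases, 250 before and 50 after the annotated start site, and are read 5′ to 3′ on the strand of the gene. They lie at chr8:11312777-11313076 on the minus strand for Col4a1, chr8:11312555-11312854 on the plus strand for Col4a2, chrX:141475169-141475468 on the plus strand for Col4a5 and chrX:141474027-141474326 on the minus strand for Col4a6. Capitals mark matches, on either strand, to the GC box (GGGCGG or CCGCCC), the CCAAT box (CCAAT or ATTGG) and the TATA box (TATAAA or TTTATA), none of which overlap in these windows.
Col4a1: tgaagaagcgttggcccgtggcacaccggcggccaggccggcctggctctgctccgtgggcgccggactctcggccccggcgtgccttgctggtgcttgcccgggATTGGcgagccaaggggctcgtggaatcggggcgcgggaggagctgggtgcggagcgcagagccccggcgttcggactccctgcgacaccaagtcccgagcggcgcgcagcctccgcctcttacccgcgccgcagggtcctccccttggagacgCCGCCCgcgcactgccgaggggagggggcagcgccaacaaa
Col4a2: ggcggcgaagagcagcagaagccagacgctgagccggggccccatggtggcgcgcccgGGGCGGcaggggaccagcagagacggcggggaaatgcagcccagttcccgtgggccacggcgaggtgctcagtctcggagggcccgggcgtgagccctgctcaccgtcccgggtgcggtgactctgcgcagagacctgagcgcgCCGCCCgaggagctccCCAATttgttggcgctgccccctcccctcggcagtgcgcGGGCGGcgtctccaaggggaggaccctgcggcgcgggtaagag
Col4a5: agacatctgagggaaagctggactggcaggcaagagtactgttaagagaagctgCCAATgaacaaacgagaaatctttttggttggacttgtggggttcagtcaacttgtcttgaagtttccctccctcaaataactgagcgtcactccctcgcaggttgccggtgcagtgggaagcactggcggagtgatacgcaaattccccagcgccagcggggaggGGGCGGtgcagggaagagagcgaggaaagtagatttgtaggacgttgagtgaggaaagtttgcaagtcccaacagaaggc
Col4a6: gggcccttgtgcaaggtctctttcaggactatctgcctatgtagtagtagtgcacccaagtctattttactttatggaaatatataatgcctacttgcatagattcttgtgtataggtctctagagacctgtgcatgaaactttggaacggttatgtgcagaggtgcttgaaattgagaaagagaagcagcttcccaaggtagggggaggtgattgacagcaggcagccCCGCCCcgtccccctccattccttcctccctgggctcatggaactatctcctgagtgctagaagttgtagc
The start sites of Col4a1 (11312826, minus strand) and Col4a2 (11312805, plus strand) are 21 bases apart. Placed so, the annotated transcripts of Col4a1 and Col4a2 overlap at their starts. Their windows share 78 bases, which hold 1 GC box, printed in both. The start sites of Col4a5 and Col4a6 are 1343 bases apart, with transcripts that run away from each other. The windows of Col4a5 and Col4a6 share no bases. The TATA box letters are in none of the 4 windows, the GC box letters in all 4, and the CCAAT box letters in 3, Col4a6 being without them. Windows were found for 28 of the 35 collagen genes, 31 windows in all. The GC box letters were in 20 of these 31 windows, against 35.7% of all 32851 RefSeq windows of the same length. The CCAAT box letters were in 12, against 37.4% of all windows, and the TATA box letters in 5, against 13.6%. A match is a run of letters and not a shown binding site.

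Types VIII and X are short-chain network collagens. Col8a2, a chain of type VIII collagen known from Descemet's membrane of the cornea, gave 1470.0 in RPE, 1654 in CBPE and 513 in IPE, 2.86-fold higher in RPE and 3.22-fold higher in CBPE than in IPE. Col8a1, its partner, gave 3149.8 in RPE, 2789 in CBPE and 1547 in IPE, the one collagen of the 21 that was highest in RPE. Its probe sets disagreed, since the others read 820.0 in RPE, 413 in CBPE and 654 in IPE and 345 in RPE, 291 in CBPE and 549.8 in IPE, so no direction against IPE can be given. In RPE against CBPE all 3 were higher in RPE, by 0.18 to 0.99 on the log2 scale. Col10a1, the chain of hypertrophic cartilage, was faint, at 21.5 in RPE, 37.4 in CBPE and 0.4 in IPE.

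Among the FACIT collagens, Col14a1 showed the largest difference of all 35 genes. Its product binds fibril surfaces in tendon and skin. The signal of Col14a1 was 1887 in RPE, 2979.9 in CBPE and 20.4 in IPE. In IPE it lay little above the floor, and it was 92.5-fold higher in RPE and 146-fold higher in CBPE than in IPE, by log2 differences of 6.53 and 7.19. The second probe set read 728 in RPE, 1337 in CBPE and 9.4 in IPE, differences of 5.65 for RPE and 6.53 for CBPE once IPE was set to its floor. Tendon markers followed Col14a1 only in part. All 5 (Tnmd, Scx, Mkx, Thbs4 and Fmod) were above the floor in RPE and in CBPE, and 2 in IPE, where Tnmd, Mkx and Thbs4 were under it, and their summed signal was 7246 in RPE, 8465 in CBPE and 218.9 in IPE. Tnmd, a membrane protein of tendon cells, had 1973 in RPE, 4176 in CBPE and 0.9 in IPE, and Fmod, a proteoglycan on collagen fibrils, 5075 in RPE, 4068 in CBPE and 179.7 in IPE. Most of the summed signal came from Tnmd and Fmod. In CBPE, all 5 exceeded IPE by 2-fold or more (100%), beside 24.3% of all genes. In RPE, 3 of the 5 did (60%), beside 20.3%, while Scx and Mkx had log2 differences of 0.37 and 0.77. Between RPE and CBPE, 3 were lower in RPE, as Col14a1 was, and Fmod and Thbs4 were higher. Low signals in IPE were not particular to tendon markers. Among fibroblast markers, Mfap5 had 1830 in RPE, 1755 in CBPE and 50.4 in IPE, and was named after its values were seen. Among pericyte markers, Rgs5 had 1416 in RPE, 3973.5 in CBPE and 10.4 in IPE. In each of these lists, 2 markers were at least 2-fold lower in RPE, and 2 in CBPE, than in IPE. The part of any such cells in the Col14a1 value was not tested.

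Col12a1, the other large FACIT chain of type I fibrils, did not follow it. Its signal was 1255 in RPE, 2386 in CBPE and 2648 in IPE, 2.11-fold lower in RPE than in IPE and close to equal in CBPE. The second usable probe set read 325 in RPE, 521 in CBPE and 1780.2 in IPE and thus put both RPE and CBPE over 3-fold below IPE, by log2 differences of -2.45 and -1.77. Col16a1, a FACIT chain of several tissues, was nearly level, at 572 in RPE, 577 in CBPE and 399 in IPE. The 3 chains of type IX collagen, a partner of type II fibrils in cartilage and vitreous, were close to background. Col9a1 gave 2.6 in RPE, 2.6 in CBPE and 24.3 in IPE, Col9a2 gave 1.2 in RPE, 31.0 in CBPE and 2.6 in IPE and Col9a3 gave 4.0 in RPE, 5.0 in CBPE and 34.9 in IPE. Col9a3 was counted as lower in RPE and CBPE than in IPE at the floor of each array, but CBPE had absent bacterial controls up to 20.2, which bounds the fold between CBPE and IPE only at 1.73 or more.

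Type VI collagen, a beaded microfibril around cells made of 3 chains, was higher in RPE and CBPE in all 3 chains. Col6a1 gave 2258 in RPE, 2430.2 in CBPE and 666 in IPE, Col6a2 gave 1856 in RPE, 2703 in CBPE and 374 in IPE, and Col6a3 gave 1182 in RPE, 1786 in CBPE and 367 in IPE. Against IPE, Col6a1 was 3.39-fold higher in RPE and 3.65-fold higher in CBPE. For Col6a2 the folds were 4.97 in RPE and 7.23 in CBPE, and for Col6a3 3.22 in RPE and 4.87 in CBPE. These differences stayed over 2-fold under equal array medians and under quantile normalization. When its 2 probe sets were averaged, Col6a2 differed from IPE by 2.24 in RPE and 2.59 in CBPE on the log2 scale. Col6a1 and Col6a3 had 1 probe set each, so averaging could not change them. RPE and CBPE differed less, with log2 differences of -0.11 for Col6a1, -0.54 for Col6a2 and -0.60 for Col6a3. Quantile normalization moved that of Col6a1 to 0.05. Col6a1 and Col6a2 lie next to each other on chromosome 10 in RefSeq, with no protein-coding gene between them.

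Col18a1, which lies on the same chromosome with 2 protein-coding genes between it and Col6a1, went the other way. It encodes the basement membrane proteoglycan of type XVIII, whose end fragment is endostatin. Its signal was 123 in RPE, 325 in CBPE and 729.5 in IPE, below IPE by 5.92-fold in RPE and 2.24-fold in CBPE, and 2.64-fold lower in RPE than in CBPE. The second probe set read 87.1 in RPE, 213 in CBPE and 533 in IPE, the same order. No other collagen among the 21 was below both other cultures in RPE by a factor of 2. Col23a1, a transmembrane collagen, gave 51.8 in RPE, 27.8 in CBPE and 165 in IPE, 3.18-fold lower in RPE and 5.92-fold lower in CBPE than in IPE. Its further probe sets read 64.8 in RPE, 18.2 in CBPE and 91.0 in IPE and 17.5 in RPE, 7.7 in CBPE and 28.1 in IPE, which agreed in direction. By the first of these RPE was 1.40-fold lower than IPE, and by the mean of all probe sets the log2 difference was -0.95, so the 2-fold call in RPE against IPE rests on the brightest probe set.

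Col15a1, a relative of Col18a1 found at vessel and muscle basement membranes, gave 2.4 in RPE, 53.9 in CBPE and 14.7 in IPE and was lower in RPE than in CBPE by at least 3.21-fold. Endothelial markers were also most often detected in CBPE, with 4 of 11 above the floor in RPE, 10 in CBPE and 4 in IPE, summed to 572 in RPE, 1932 in CBPE and 1193 in IPE. Vwf was under the floor on all 3 arrays, Pecam1, Cdh5, Tie1, Cldn5 and Erg in RPE and IPE, Esam in RPE and Tek in IPE. The brightest were Emcn, at 211 in RPE, 1115 in CBPE and 745 in IPE, and Eng, at 241 in RPE, 293 in CBPE and 362 in IPE. Of 9 macrophage markers, 6 were above the floor in RPE, 7 in CBPE and 4 in IPE, summed to 427.5 in RPE, 2189 in CBPE and 332 in IPE, with Ptprc and Itgam under it on all arrays, Laptm5 in RPE and Csf1r, Tyrobp and Adgre1 in IPE. Lyz2, a lysozyme, had 232 in RPE, 1288 in CBPE and 131 in IPE, and Ctss, a cathepsin, 58.5 in RPE, 347 in CBPE and 92.3 in IPE. The part of these cells in the Col15a1 value was not tested. Col7a1, the anchoring fibril chain under epithelia, gave 21.5 in RPE, 30.6 in CBPE and 37.3 in IPE. Col25a1, a neuronal transmembrane collagen, gave 8.4 in RPE, 31.3 in CBPE and 4.4 in IPE. Col13a1 and Col17a1, transmembrane collagens of cell adhesion sites, were under the floor everywhere, the highest Col17a1 signal being 16.5 in RPE. In all, 12 of the 35 genes stayed under 40 on every array. For such genes a 2-fold call rests on the one array where the signal passed the floor.

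**Figure D2:**
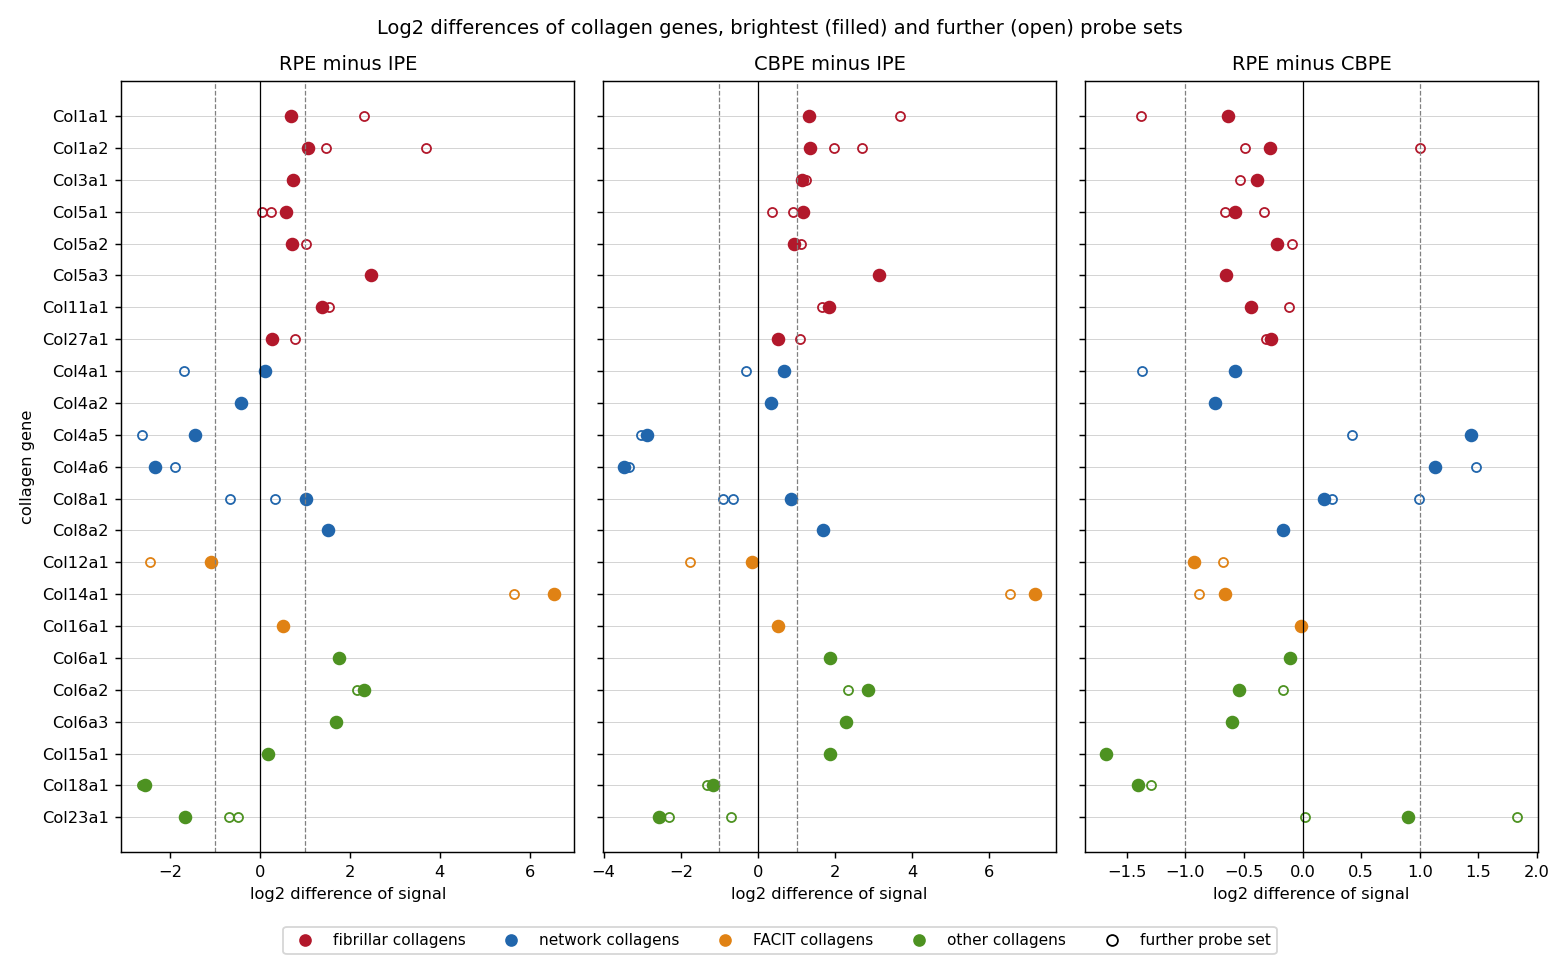
Log2 difference of signal for each collagen gene with a signal over 40 on at least 1 array, in RPE minus IPE, CBPE minus IPE and RPE minus CBPE, coloured by class. Filled points are the brightest probe set, open points further probe sets, and dashed lines mark a 2-fold difference. Col14a1 and type VI lie right of 0 against IPE, Col4a5, Col4a6, Col18a1 and Col23a1 lie left, and the open points of Col4a1 and Col8a1 cross 0.

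Counted over the whole family, collagens differed from IPE in both directions. In RPE against IPE, 29 of the 35 were measured, meaning that 1 or both signals passed the floor. Of these, 9 were at least 2-fold higher in RPE and 6 lower (51.7%), where 20.3% of all 12446 measured genes differed, 9.87% higher and 10.5% lower. The 9 include Col8a1, whose probe sets disagreed in direction. The median log2 difference was 0.52 for the collagens and 0.02 for all genes. In CBPE against IPE, 15 of 32 were higher in CBPE and 5 lower (62.5%), against 24.3% of all 12831 genes, 11.8% higher and 12.5% lower, and the medians were 0.89 and 0.04. In RPE against CBPE, 2 of 29 were higher in RPE (Col4a5 and Col4a6) and 2 lower (Col15a1 and Col18a1), or 13.8%, against 8.01% of all 12860 genes, 3.75% higher and 4.26% lower. Here 25 of the 29 collagens were below 0, with a median of -0.54, while 6441 of the 12860 genes were. The comparisons with IPE share its array, so they are not independent of each other. Some members entered a comparison only because 1 of its 2 signals passed the floor, so these shares describe the arrays and support nothing further.

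By class, the fibrillar genes had medians of 0.72 for RPE and 1.17 for CBPE against IPE, with 3 and 6 of 9 measured at least 2-fold higher and none lower. Network-forming genes had medians of -0.15 and 0.55, with 2 of 8 measured higher and 2 lower in RPE, and 2 of 9 higher and 2 lower in CBPE. The 2 higher in RPE include Col8a1, whose probe sets disagreed in direction. FACIT genes had medians of -0.53 and 0.19, with 1 of 5 higher and 2 lower in RPE, and 2 of 6 higher and 1 lower in CBPE. The other collagens had 3 of 7 higher and 2 lower in RPE, with a median of 0.19, and 5 of 8 higher and 2 lower in CBPE, with a median of 1.49. In RPE against IPE the shares called were 33.3% (fibrillar), 50% (network-forming), 60% (FACIT) and 71.4% (other), beside 20.3% of all genes. In CBPE against IPE they were 66.7%, 44.4%, 50% and 87.5%, beside 24.3%. Col9a3 (lower in RPE and CBPE) and Col9a2, Col10a1 and Col25a1 (higher in CBPE) were called with 1 of the 2 signals under the floor. The class counts thus support nothing further. In RPE against CBPE, all 9 measured fibrillar genes and all 4 FACIT genes were below 0 by the brightest probe set. Their medians were -0.44 and -0.77, and none of them reached 2-fold. Of these genes, Col1a2 (-0.28), Col5a2 (-0.22) and Col16a1 (-0.01) were within the probe set SD of 0.29. Col2a1 and Col9a2 were under the floor in RPE. After quantile normalization Col5a2 was at 0.09, and by the mean of all probe sets Col1a2 was at 0.07.

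Brightness itself went with part of this pattern. Genes with a mean signal over 1000, 911 in all, had a median log2 difference of 0.47 for RPE and 0.59 for CBPE against IPE, and -0.15 for RPE against CBPE. The 12 collagens among them had 0.73, 1.15 and -0.46 in the same comparisons. The plot of collagen genes among all genes shows the rise of the general median with brightness.

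**Figure D3:**
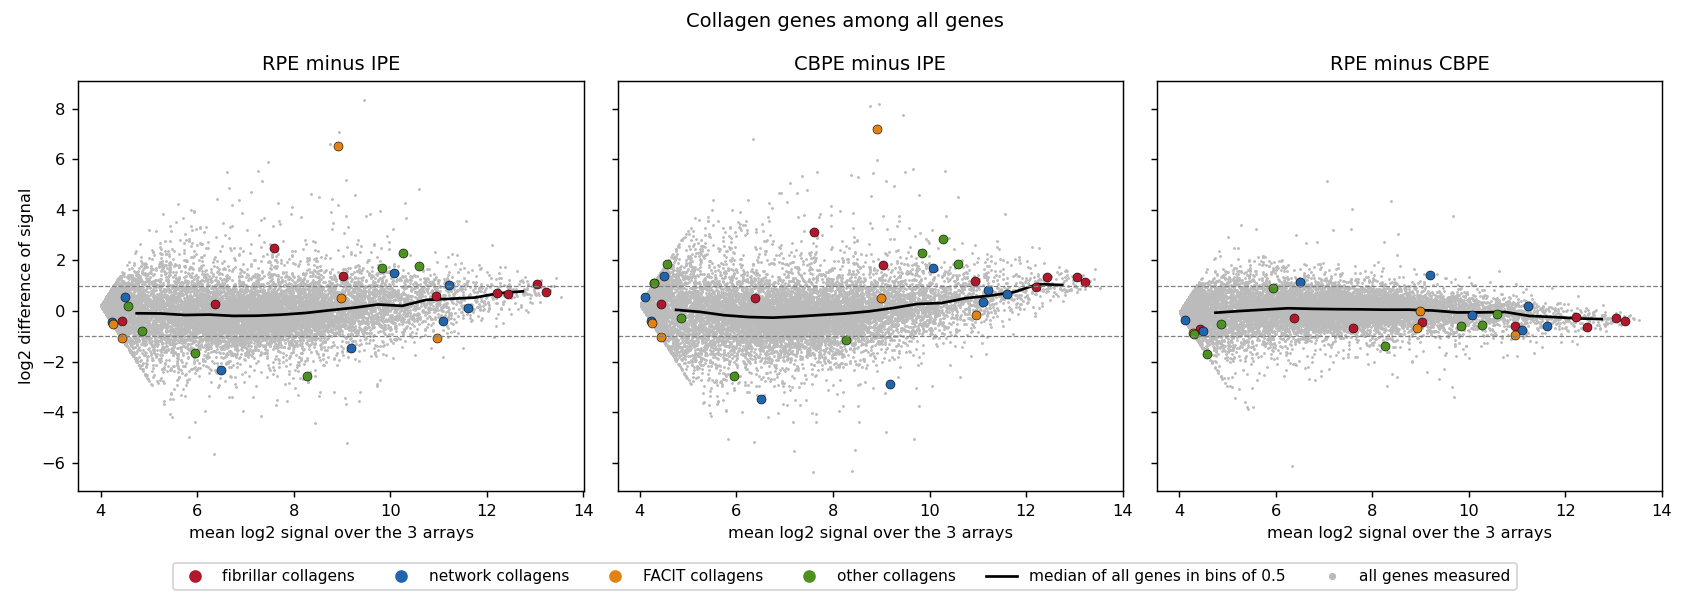
Log2 difference of signal against mean log2 signal over the 3 arrays, in RPE minus IPE, CBPE minus IPE and RPE minus CBPE. Grey points are all measured genes, the black line is their median in bins of 0.5, coloured points are collagen genes by class, and dashed lines mark a 2-fold difference. The black line climbs with brightness against IPE. It stops before the brightest fibrillar points, Col3a1 (mean log2 signal 13.23) and Col1a2 (13.05). Col14a1, at 6.53 and 7.19, lies far above the line.

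When the arrays were quantile-normalized, which gives all 3 the same distribution of signals, the medians of the 911 bright genes became 0.07, 0.04 and 0.02, and those of the 12 bright collagens 0.23, 0.30 and -0.20, in the same order of comparisons. The fibrillar chains Col1a1, Col1a2, Col3a1 and Col5a1 then no longer reached 2-fold in CBPE against IPE, nor did Col1a2 and Col8a1 in RPE against IPE, and the faint Col9a3 no longer did in either comparison. Col5a3, Col11a1, Col14a1, Col8a2, the type VI chains, Col4a5, Col4a6, Col18a1 and Col23a1 kept at least 2-fold and their direction in RPE and in CBPE against IPE. After quantile normalization the family count was 7 higher and 5 lower in RPE against IPE, 11 and 4 in CBPE against IPE, and 2 and 4 in RPE against CBPE. Over all genes the split in RPE against IPE was then 1392 higher and 1011 lower, where the deposited scale gave 1228 and 1303. The split for CBPE against IPE was 1709 higher and 1222 lower, where the deposited scale gave 1513 and 1609. Setting equal array medians instead shifted the median of all genes to -0.20 for RPE and -0.22 for CBPE against IPE, with 782 genes higher and 1920 lower in RPE and 945 higher and 2369 lower in CBPE. The collagen medians were then 0.31 and 0.64, and the family count was 7 higher and 7 lower in RPE and 11 and 5 in CBPE.

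**Figure D4:**
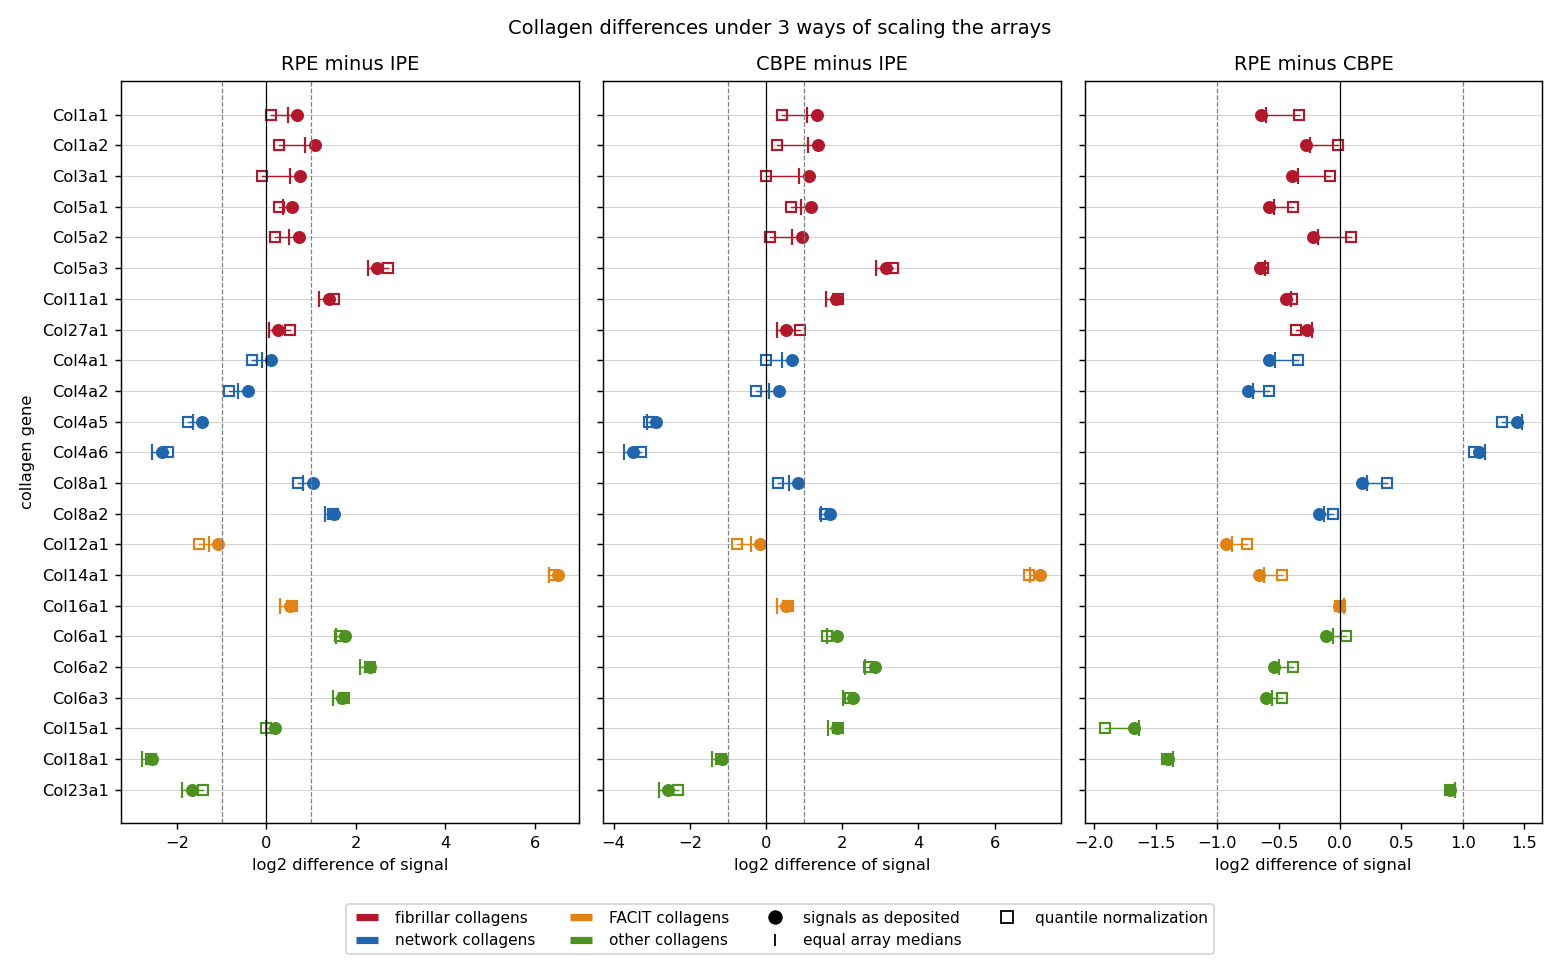
Log2 difference of each collagen gene with a signal over 40 on at least 1 array, in RPE minus IPE, CBPE minus IPE and RPE minus CBPE, on 3 scales: as deposited (filled circles), equal array medians (ticks) and quantile normalization (open squares). Colours are classes and dashed lines mark a 2-fold difference. Col1a1, Col1a2 and Col3a1 move toward 0 against IPE, Col3a1 to -0.09 and -0.01, while Col14a1, type VI, Col4a5, Col4a6 and Col18a1 stay in place.

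Enzymes and chaperones that make collagen were mostly brighter in RPE and CBPE than in IPE, as were bright genes in general (691 of the 911 in RPE and 732 in CBPE). Of 13 measured hydroxylases and glycosyltransferases, which modify proline and lysine in the chains, 2 were higher and none lower in RPE against IPE, 4 were higher and 1 lower in CBPE against IPE, and 1 was lower in RPE than in CBPE. That is 15.4% in RPE and 38.5% in CBPE against IPE, beside 20.3% and 24.3% of all genes. P4ha2, a prolyl 4-hydroxylase subunit, had 751 in RPE, 1356 in CBPE and 474 in IPE, P3h4, a partner of lysyl hydroxylase in the endoplasmic reticulum, 1077 in RPE, 1023 in CBPE and 359 in IPE, and Plod1, a lysyl hydroxylase, 234 in RPE, 521 in CBPE and 399 in IPE. Of 9 measured folding and secretion genes, 2 were higher and 1 lower in RPE, and 4 higher and 1 lower in CBPE, against IPE, or 33.3% and 55.6%. Serpinh1, the collagen chaperone HSP47, had 5094 in RPE, 6654 in CBPE and 2922 in IPE. Fkbp14, a prolyl isomerase, had 1019.9 in RPE, 941 in CBPE and 327 in IPE, and Sec23a, a coat protein of export vesicles, 1153 in RPE, 1139.5 in CBPE and 545 in IPE. The gene lower in RPE was Tmem38b and the gene lower in CBPE was Mia3. The 3 usable probe sets of Mia3 disagreed in CBPE against IPE, from -1.44 to 0.77 on the log2 scale.

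In procollagen processing and crosslinking, 1 of 9 measured genes was higher in RPE and 4 of 10 in CBPE, each against IPE, with none lower, or 11.1% and 40%. Pcolce, an enhancer of procollagen cleavage, had 6185 in RPE, 9843 in CBPE and 4103 in IPE. Lox, which starts crosslinks between chains, had 6067 in RPE, 8766 in CBPE and 3245 in IPE, and its relative Loxl1 had 3905 in RPE, 5863 in CBPE and 2250.2 in IPE. The gene counted in RPE was Pcolce2, which was also the 1 gene of the list lower in RPE than in CBPE, at 67.9 in RPE, 290.4 in CBPE and 31.1 in IPE. It was named after its values were seen, as were Tmem38b and Mia3. Among proteins that bind fibrils, 2 of 9 were higher and 1 lower in RPE, and 5 higher and none lower in CBPE, against IPE, and 3 were lower in RPE than in CBPE, shares of 33.3%, 55.6% and 33.3%. Sparc had 11781 in RPE, 13477 in CBPE and 6700.0 in IPE, Bgn 8512 in RPE, 10204 in CBPE and 3628 in IPE and Dcn 2707 in RPE, 6163 in CBPE and 5566 in IPE. Dcn was thus the one lower in RPE than in IPE, and its probe sets disagreed in that comparison.

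Against IPE, 14.3% of measured collagen receptors differed 2-fold in RPE and 12.5% in CBPE, and 16.7% and 33.3% of collagen-degrading enzymes, where all genes gave 20.3% and 24.3%, shares near the background for lists this short. Itgb1, the shared subunit of collagen-binding integrins, was the only one of 7 measured receptors to differ 2-fold in RPE against IPE and of 8 in CBPE against IPE, lower in both, at 907 in RPE, 926 in CBPE and 1959 in IPE. Its probe sets disagreed in CBPE against IPE. Of 6 measured collagen-degrading enzymes, Ctsk, the collagen-cleaving cathepsin K, was higher in both, at 1090.2 in RPE, 813 in CBPE and 226 in IPE, and Mmp13, a collagenase, was higher in CBPE, at 550.1 in RPE, 744 in CBPE and 344 in IPE. Of 7 further collagen chains on the array outside the 35, Col24a1 alone differed 2-fold, at 52.9 in RPE, 37.3 in CBPE and 12.2 in IPE.

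Fibroblast markers, like the fibrillar and type VI genes, were mostly brighter in RPE and CBPE than in IPE. Of 14 fibroblast and mesenchymal markers, none of them a collagen, 14 were above the floor in RPE, 14 in CBPE and 12 in IPE, with Dpt and Pi16 under it in IPE. Their summed signal was 18957 in RPE, 23113 in CBPE and 12609.8 in IPE, the same order as the fibrillar genes, whose sum was 34559.6 in RPE, 45398 in CBPE and 19495 in IPE. Of the 14, 8 were higher by 2-fold or more and 2 lower in RPE against IPE, with a median log2 difference of 1.23. In CBPE against IPE, 6 were higher and 2 lower, with a median of 0.77. These are shares of 71.4% and 57.1%, beside 20.3% and 24.3% of all genes. In RPE against CBPE, 8 of the 14 were above 0, with a median of 0.14. All 9 measured fibrillar genes were below 0 by the brightest probe set, Col1a2 and Col5a2 by less than the probe set SD. The shared order of the sums thus did not hold gene by gene. S100a4, the brightest beside Dcn, had 6461 in RPE, 7899.6 in CBPE and 554 in IPE. The lower ones were Dcn and Pdgfra in RPE and Fbln1 and Pdgfra in CBPE, and Pdgfra, a growth factor receptor of fibroblasts named after its values were seen, had 958 in RPE, 777 in CBPE and 2020.3 in IPE. Of 10 pericyte and smooth muscle markers, 8 were above the floor in RPE, 9 in CBPE and 6 in IPE, summed to 16717 in RPE, 25867 in CBPE and 9904 in IPE. Abcc9 was under the floor on all 3 arrays, Kcnj8 in RPE and IPE, and Rgs5 and Cspg4 in IPE. The brightest, the contractile proteins Acta2 and Tagln, had 9769 and 5078 in RPE, 14299.6 and 6961 in CBPE and 5496 and 3967 in IPE. The part of stromal cells in the collagen values was not tested. IPE itself, with 12 of the 14 fibroblast markers above its floor, had Col3a1 and Col1a2 among its brightest signals, the highest signal on its array being 8441.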

How the data were processed

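RNA from 3 cultures was measured on 1 array each. The deposited values are linear intensity values per probe set; the summary method is not given in the sources used here. Their trimmed mean, without 2% at each end, was 100.001 on every array, so they had been scaled. Per the labels' protocols, RNA (1 µg) was primed with oligo-dT, amplified and labelled with biotin. Symbols came from the platform annotation of 2016, updated to RefSeq (GRCm38.p6): of 45101 probe sets (64 controls), 34958 had 1 gene, 932 had several and 9211 were not listed.

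Signals were raised to a floor at the 50th percentile of each array before log2 was taken. Each gene took its probe set of highest mean log2 signal. A call needs a 2-fold difference and 1 signal above the floor. "At least" folds are over the floor or over the highest of 27 absent bacterial controls (16.6 in RPE, 20.2 in CBPE, 7.9 in IPE), whichever is higher. Each difference rests on 1 array a culture, so no p-value or standard error is given, and the number of arrays limits the precision. Members and lists were chosen with earlier results of these data known. All 35 members are named; from each pathway list, up to 3 genes with a 2-fold difference are named by brightness, and from marker lists the genes under the floor and the brightest 2. Alternatives were scaling, floor, probe set choice and fold. Python 3.11.15, numpy 2.4.6, pandas 2.3.3 and matplotlib 3.10.9 were used.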

Additional observations from a re-analysis of the deposited data

How the results depend on the processing

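No paired analysis was possible because each culture had 1 array. After quantile normalization the collagen median of CBPE against IPE was 0.34 (0.89 as deposited), the collagens counted as lower in RPE than in CBPE numbered 4 (2 as deposited), and the difference of Col3a1 in CBPE against IPE was -0.01, the opposite sign. A floor at the 60th percentile left 1 collagen lower in RPE than in CBPE. At the 40th percentile, 7 differed between RPE and CBPE, 5 of them lower in RPE. A fixed floor of 100 gave 3 lower in CBPE than in IPE and 2 different between RPE and CBPE, 1 higher and 1 lower. The mean of all probe sets gave 3 lower in RPE than in IPE and 1 higher in RPE than in CBPE. A 3-fold threshold gave 8 for RPE against IPE (5 higher, 3 lower), 11 for CBPE against IPE (8 higher, 3 lower) and 1 for RPE against CBPE (0 higher, 1 lower), fewer by construction. With the second brightest probe set, chosen after seeing the data and available for 22 collagens, 13 differed between CBPE and IPE, 8 of them higher. The other family medians and counts kept their direction and moved by no more than the probe set SD or 1.5 times. For single collagens, equal array medians moved none of 90 differences by more than that SD, quantile normalization moved 15 and reversed 1 called difference, and the mean of all probe sets moved 24. The second brightest probe set moved 27 and left 25 within that SD. The cause of these changes was not tested, except where fewer genes passed a stricter rule. Signals near the floor limit 12 of the 35 genes.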
